A study of Mus musculus with 21 samples.

Results

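Collagens are the main structural proteins of the extracellular matrix, and each collagen gene of the form Col-number-a-number encodes a single chain of such a protein. The genes described here are those whose array probe carries exactly such a symbol and no other, which gave 33 collagen chain genes among 16248 genes measured in epididymal fat. The value table used here covers the genome unevenly. It has 78.1% to 91% of the protein-coding genes of each of chromosomes 1 to 5 and 10 to 19, 42% of those of chromosome 6 and 17 genes in all from 7, 8, 9, X and Y. Shares of all genes refer to the genes measured. The reference table of mouse genes lists 44 collagen chain genes. The other 11 were not analysed here: Col4a1, Col4a2, Col4a5, Col4a6, Col5a3, Col6a4, Col6a5, Col6a6, Col7a1, Col12a1 and Col28a1. The 33 genes comprise 10 chains of fibrillar collagens, 4 of basement membrane collagens, 3 of the microfibrillar type VI and 16 of other classes. Only Col5a1 had more than 1 probe, and the brighter probe stood for it. Neither its bright nor its dim probe passed the test in any comparison.

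Collagen chains wind around each other into long helices inside the cell, are secreted, trimmed by proteases and crosslinked outside it. Type I, III and V chains form the banded fibrils that give tissue its tensile strength, type IV, XV and XVIII chains belong to the basement membrane that wraps each adipocyte and capillary, and type VI forms beaded microfilaments around adipocytes. Fibroblasts and progenitor cells make most fibrillar collagen in fat, whereas adipocytes, endothelial and mural cells contribute to the basement membrane. Accumulation of fibrillar and type VI collagen is a known feature of visceral fat in obesity.

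The arrays came from male C57BL/6J mice that arrived at 4 weeks of age, were acclimated for 1 week and then ate their diet for 12 weeks in individual cages. The 21 arrays fell into 7 groups of 3: ND, a normal diet with 10% of energy as fat; HFD, a high-fat diet with 40%; BC, the high-fat diet with 0.3% Bacillus coagulans by weight; SMG, the same diet with 0.3% steamed grain; L_FMG and H_FMG, the same diet with 0.3% and 0.9% fermented mixed grain; and RMG, which the labels place on the high-fat diet without saying what was added. The labels state 10 mice for ND, HFD, BC and SMG and do not say whether an array holds the RNA of 1 mouse or of a pool, so the p-values below measure the spread between arrays. Each array is called by the number in its title, which is a name and not an order. Levels are log2 values as deposited. Their precision is limited by the number of arrays, and no detection call accompanied them, so that values of dim probes may lie close to background.

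The adipocyte markers were bright on every array, with log2 levels of 11.98 to 12.32 for Fabp4, the fatty acid carrier of fat cells, and 8.68 to 9.80 for Adipoq, which encodes adiponectin. Array medians lay between 4.23 and 4.39 over all complete probes. ND array 9 received the lowest array weight (0.208) when weights were estimated, and it had the lowest sum of fibroblast markers of all arrays. In whole tissue, fewer cells of a type and less RNA per cell cannot be told apart.

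To show the DNA in front of collagens whose levels shifted, RefSeq windows of 250 bases ending just before the annotated transcription start were taken from build GRCm38.p6. Windows were listed for 25 of the 33 genes and for 6 of the 9 collagens that passed the test in at least 1 comparison. The windows of 4 genes follow, written 5′ to 3′ along the gene. They are Col1a2 and Col3a1 (each correlated with Col1a1), Col8a1 (highest in RMG) and Col15a1, which moved the opposite way. Capitals mark the box spelled CCAAT, the TATA box spelled TATAAA and the GC box spelled GGGCGG. Both strands were searched, so that a GC box on the opposite strand appears as CCGCCC. The marked motifs do not overlap one another in these windows.
Col1a2, chr6:4505368-4505617, plus strand: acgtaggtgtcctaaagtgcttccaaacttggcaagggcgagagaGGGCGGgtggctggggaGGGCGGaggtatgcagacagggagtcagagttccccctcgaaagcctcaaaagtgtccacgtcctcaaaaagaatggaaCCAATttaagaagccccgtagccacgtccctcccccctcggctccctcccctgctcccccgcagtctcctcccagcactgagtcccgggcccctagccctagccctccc
Col3a1, chr1:45311288-45311537, plus strand: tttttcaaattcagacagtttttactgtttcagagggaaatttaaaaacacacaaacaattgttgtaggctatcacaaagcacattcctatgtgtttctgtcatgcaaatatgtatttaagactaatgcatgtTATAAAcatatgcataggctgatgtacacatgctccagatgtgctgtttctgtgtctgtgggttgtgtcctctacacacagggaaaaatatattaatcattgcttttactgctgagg
Col8a1, chr16:57754738-57754987, minus strand: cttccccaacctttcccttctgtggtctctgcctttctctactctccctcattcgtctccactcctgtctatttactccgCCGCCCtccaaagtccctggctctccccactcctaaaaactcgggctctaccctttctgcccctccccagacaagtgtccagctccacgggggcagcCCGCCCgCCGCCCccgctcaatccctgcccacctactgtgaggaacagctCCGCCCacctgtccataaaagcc
Col15a1, chr4:47207762-47208011, plus strand: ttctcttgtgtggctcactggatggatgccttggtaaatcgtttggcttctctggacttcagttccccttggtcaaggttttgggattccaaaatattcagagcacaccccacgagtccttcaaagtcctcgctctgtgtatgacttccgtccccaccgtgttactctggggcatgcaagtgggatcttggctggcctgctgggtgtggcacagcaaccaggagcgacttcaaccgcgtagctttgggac

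The windows of the fibril genes Col1a2 and Col3a1, which were each correlated with Col1a1, shared none of these motifs. Col1a2 held CCAAT with its first base 109 bases before the start and 2 copies of GGGCGG. Col3a1 held a single TATAAA, with its first base 117 bases before the start, and no other motif. Their GC contents were 62.0% and 35.2%, against a median of 52.4% over all 32851 windows. Col8a1 held 4 copies of GGGCGG, and Col15a1 held none of the motifs. Over the 28 collagen windows, GGGCGG was found in 14 (50%), CCAAT in 7 (25%) and TATAAA in 5 (17.9%), on either strand. The same letters occurred in 32.7%, 33.8% and 12.4% of all windows. These matches describe letters and are not evidence of binding.

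The first question was which collagen classes differed between the high-fat and the normal diet. The type I chains were higher in HFD, and Col15a1 and Col23a1 were lower. With limma over all 21 arrays and Benjamini-Hochberg adjustment over 16248 genes, 4 of the 33 collagens passed an adjusted p of 0.05 (12.1%), 2 higher and 2 lower, while 8.63% of all genes passed. Across all 33, 12 changes were positive and 21 negative with a median of -0.15 on the log2 scale, and over all genes the median was -0.04. The classes differed in their medians: -0.05 for fibrillar, -0.29 for basement membrane, 0.19 for microfibrillar and -0.20 for the other chains. After quantile normalization they were -0.10, -0.40, 0.08 and -0.14, so the size of every class median depends on the scaling. The HFD and ND arrays did not overlap for 19 collagens, against 28.7% of all genes.

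Col1a1 encodes the alpha 1 chain of type I collagen, the most abundant fibril former. Its log2 levels were 8.68, 8.81 and 9.11 in ND and 9.55, 9.73 and 9.32 in HFD. Every HFD array stood above every ND array, and the difference was 0.66 ± 0.17 (SE; 1.58-fold, adjusted p = 0.0184). Col1a2, its partner chain, read 8.75, 8.73 and 8.67 in ND and 9.36, 9.53 and 9.28 in HFD. The 3 ND values of Col1a2 lay within 0.08 of each other, all below HFD, and the difference was 0.67 ± 0.14 (1.59-fold, adjusted p = 0.00702). Without HFD array 6 the adjusted p rose to 0.112 for Col1a1 and 0.0525 for Col1a2. Col1a1 also missed the threshold without ND array 6 (0.0619), ND array 8 (0.0561) or HFD array 4 (0.0522).

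Col3a1, the type III chain that mixes with type I in fibrils, differed by 0.44 ± 0.15 and did not pass (adjusted p = 0.0750), nor did Col5a2, a type V chain that helps start fibrils (0.30 ± 0.12, adjusted p = 0.109). The arrays of HFD and ND did not overlap for either gene. Col5a1 differed by 0.03 ± 0.09. The cartilage-type chains Col11a1 and Col11a2 differed by -0.33 ± 0.12 and -0.34 ± 0.12 and missed the threshold at 0.0929 and 0.0895. Col11a1 lay below the lowest array median of 4.23, at 3.53, 3.50 and 3.97 in ND and 3.37, 3.24 and 3.40 in HFD. Thus the fibrillar class split into 5 positive and 5 negative changes. The negative ones were Col2a1, Col11a1, Col11a2, Col24a1 and Col27a1, with ND and HFD means of at most 5.24. Those of the positive ones were at least 6.56.

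All 4 measured basement membrane chains had negative changes in HFD in the values as deposited, and 1 passed. After quantile normalization and rounding, 3 changes were negative and 0 positive. Col15a1 encodes the type XV chain, a collagen of the basement membrane zone. Its levels were 8.08, 8.16 and 8.02 in ND and 7.79, 7.68 and 7.70 in HFD. Every HFD array was lower, by 0.36 ± 0.10 in the mean (1.29-fold lower, adjusted p = 0.0259). The adjusted p was 0.111 without HFD array 6, 0.0813 without HFD array 7 and 0.0814 without ND array 8. Col18a1, the precursor of endostatin, changed by -0.22 ± 0.10 (adjusted p = 0.180), Col4a3 by -0.54 ± 0.18 (0.0675) and Col4a4 by -0.13 ± 0.17 (0.659). The type IV chains best known from fat, Col4a1 and Col4a2, are among those not analysed here.

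The 3 type VI chains had small positive changes of 0.28 ± 0.13 for Col6a1, 0.19 ± 0.13 for Col6a2 and 0.19 ± 0.11 for Col6a3, and the lowest adjusted p was 0.177. After quantile normalization they were 0.20, 0.08 and 0.05. Col6a1 read 9.27, 9.43 and 9.23 in ND and 9.68, 9.53 and 9.55 in HFD, without overlap, whereas the highest of the ND values of Col6a3 (7.60, 7.87 and 7.94) exceeded the lowest of its HFD values (8.04, 8.02 and 7.92).

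Among the 16 other chains 12 changes were negative. All 4 transmembrane collagens, which sit in the cell membrane and can be shed, had negative changes with a median of -0.39. Col23a1, a member of that subclass, read 5.93, 6.04 and 6.21 in ND and 5.48, 5.52 and 5.86 in HFD. The groups did not overlap, and the difference was -0.44 ± 0.13 (1.36-fold lower, adjusted p = 0.0367), a call lost in 6 of 13 alternative settings. Col14a1, a collagen attached to the surface of fibrils, had the largest positive change of any collagen here, 0.71 ± 0.23, and missed the threshold (adjusted p = 0.0605).

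Negative changes in HFD went with low levels over the whole array. Of the genes below the median level 6218 had negative and 1906 positive changes (median -0.14), and of those above it 2859 were negative and 5265 positive (median 0.10). Collagens followed the same split, with 2 positive and 13 negative changes below the median level and 10 positive and 8 negative above it. The part of signal level in the negative changes of dim collagens was not tested. Col15a1 and Col23a1 both lay above the median level.

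**Figure D1:**
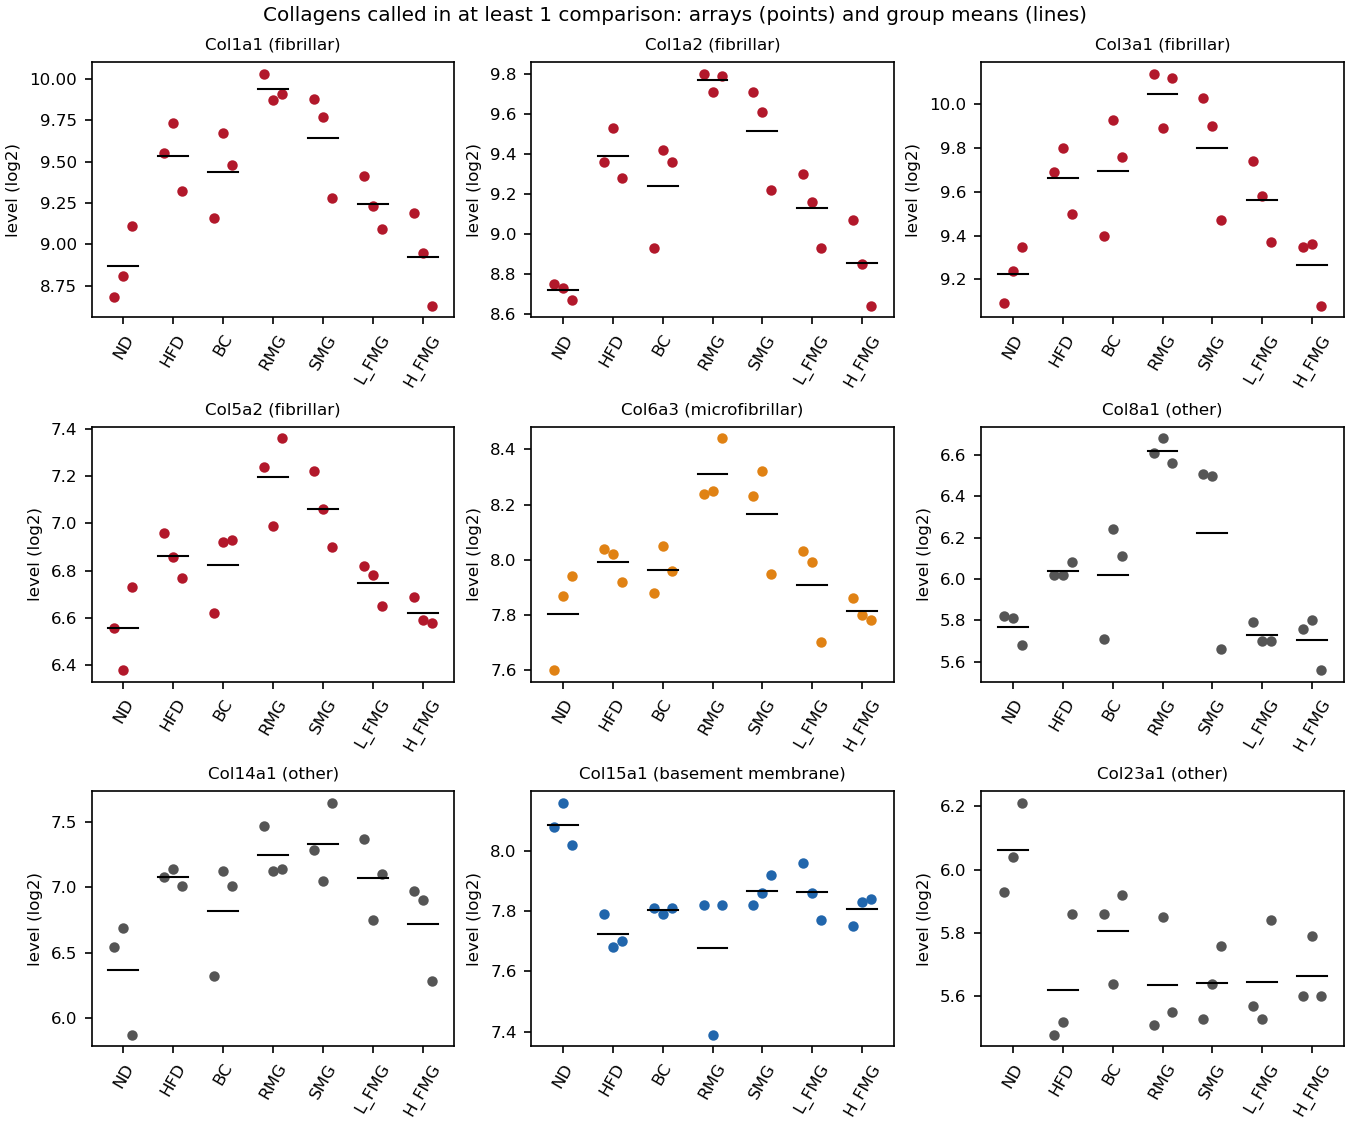
Log2 level of the 9 collagens that passed an adjusted p of 0.05 in at least 1 comparison, by diet group; points are arrays, lines are group means, and each panel has its own vertical scale. Col1a1 spans 8.63 to 10.03, lowest in ND and H_FMG and highest in RMG, while Col15a1 and Col23a1 are highest in ND.

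The labels' remaining groups all ate the high-fat diet, and each was compared with ND and with HFD. The comparisons with ND share the 3 ND arrays, and those with HFD share the 3 HFD arrays, so they are not independent of each other. By adjusted calls RMG differed from ND in more collagens than any other group, although arrays without overlap were found for 14 collagens in RMG against 19 in HFD and 18 in SMG (29.5%, 28.7% and 21.5% of all genes). Of the 33, 9 passed (27.3%), 7 higher and 2 lower, against 14.8% of all genes, 10.2% higher and 4.53% lower. The 7 higher ones were Col1a1, Col1a2, Col3a1 and Col5a2 of the fibrils, then Col6a3 of the microfilaments and Col8a1, a short chain of sheet-like networks, and Col14a1. The lower ones were again Col15a1 and Col23a1.

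Col1a1 was 10.03, 9.87 and 9.91 in RMG, 1.07 ± 0.17 above ND (2.1-fold, adjusted p = 0.000396). Col1a2 read 9.80, 9.71 and 9.79 in RMG, and its difference was 1.05 ± 0.14 (2.07-fold, adjusted p = 0.000259). These are the 2 largest changes of any collagen in any comparison made here. Col3a1 read 9.09, 9.24 and 9.35 in ND and 10.14, 9.89 and 10.12 in RMG (0.83 ± 0.15, adjusted p = 0.000974). Col5a2 read 6.56, 6.38 and 6.73 in ND and 7.24, 6.99 and 7.36 in RMG (0.64 ± 0.12, adjusted p = 0.00101). None of these 4 fibrillar genes had an RMG array as low as the highest ND array.

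Col6a3 carries a C-terminal fragment known as endotrophin and was the only type VI chain to pass. It read 8.24, 8.25 and 8.44 in RMG, 0.51 ± 0.11 above ND (1.42-fold, adjusted p = 0.00406), whereas Col6a1 and Col6a2 differed by 0.26 and 0.24. Whether Col6a3 differed more than its partner chains was not tested. Col8a1 read 5.82, 5.81 and 5.68 in ND and 6.61, 6.68 and 6.56 in RMG, with a difference of 0.84 ± 0.17 (1.8-fold, adjusted p = 0.00166). The spread of Col8a1 within each of these groups was a small part of the gap between them.

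Col14a1 was more scattered, at 6.54, 6.69 and 5.87 in ND and 7.47, 7.13 and 7.14 in RMG (0.88 ± 0.23, adjusted p = 0.0133), and the call was lost without ND array 9 (0.0752) or RMG array 4 (0.0693). Col15a1 read 7.82, 7.39 and 7.82 in RMG, 0.41 below ND on the log2 scale (adjusted p = 0.00739). RMG array 9 lay far below the other two, and without it the difference was -0.27 and the adjusted p 0.0517. Col23a1 read 5.51, 5.85 and 5.55 in RMG and differed by -0.42 ± 0.13 (adjusted p = 0.0309), with the call lost in 6 of 13 alternative settings. Col1a1, Col1a2, Col3a1, Col5a2, Col6a3 and Col8a1 kept their RMG call in all 13.

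SMG resembled RMG in direction. Of the 33 collagens 5 passed against ND (15.2%), all higher, against 5.83% of all genes, 4.74% higher and 1.1% lower, and all 5 had passed in RMG as well, in comparisons that share the ND arrays: Col1a1 (0.77 ± 0.17, adjusted p = 0.0133), Col1a2 (0.79 ± 0.14, 0.00721), Col3a1 (0.57 ± 0.15, 0.0304), Col5a2 (0.50 ± 0.12, 0.0184) and Col14a1 (0.96 ± 0.23, 0.0206). SMG array 12 stood apart from the other two. It had 9.28 for Col1a1 and 5.66 for Col8a1, while arrays 5 and 8 had 9.88 and 9.77 for Col1a1 and 6.51 and 6.5 for Col8a1. No collagen passed without SMG array 5 or without SMG array 8, and 8 passed without SMG array 12. The count was 2 without ND array 8, and with only the SMG and ND arrays in the fit it was 0.

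BC, L_FMG and H_FMG had no collagen past the threshold against ND in limma's test with Benjamini-Hochberg adjustment. At an unadjusted p under 0.05 there were 7 in BC, 10 in L_FMG and 3 in H_FMG, and 15.1%, 12.9% and 8.36% of all genes met that rule. Adjusted calls over all genes were as rare there, at 0.111% in BC (0.0923% higher and 0.0185% lower), 0.00615% in L_FMG and 0.00615% in H_FMG. Without ND array 9, 1 collagen passed in BC against ND. H_FMG was close to ND in the type I and III chains: Col1a1 differed by 0.06 (95% interval -0.30 to 0.41), Col1a2 by 0.13 (-0.16 to 0.43) and Col3a1 by 0.03 (-0.28 to 0.35). Those intervals leave room for changes of up to 0.43 on the log2 scale.

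**Figure D2:**
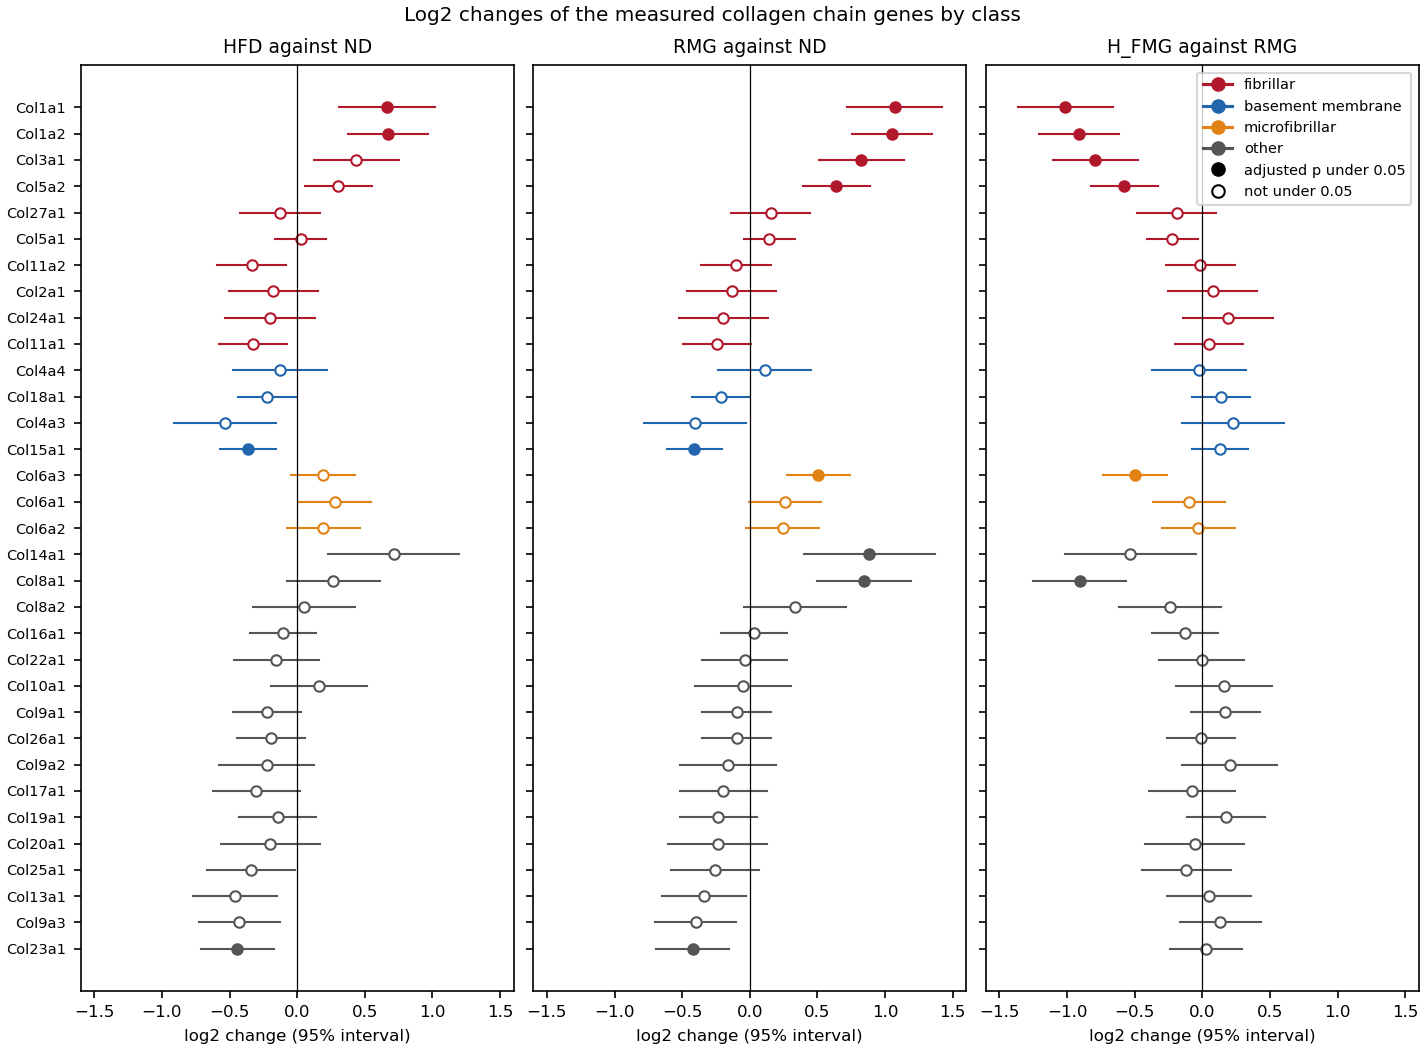
Log2 change of each of the 33 collagens in HFD against ND, RMG against ND and H_FMG against RMG, with 95% intervals from limma; colours are classes and filled points have an adjusted p under 0.05. The filled fibrillar points sit to the right of 0 in the first 2 panels and to the left in the third, with Col1a1 at 0.66, 1.07 and -1.01. The third comparison was chosen after the group levels were seen.

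The supplements were then compared with HFD itself. No collagen passed in BC, RMG, SMG, L_FMG or H_FMG against HFD by limma's adjusted p. The background was as empty: percent called over all genes was 0, 0, 0, 0 and 0.00615. At an unadjusted p under 0.05 the counts were 0 of 33 in BC, 6 in RMG, 0 in SMG, 0 in L_FMG and 4 in H_FMG, and over all genes the shares were 5.18%, 2.82%, 1.85%, 8.66% and 14.5%.

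RMG had all 10 fibrillar chains on the positive side of HFD, with a median of 0.26, and 28 of the 33 collagens. Negative changes made up 15.2% of collagens and 45.9% of all genes there. The 6 collagens with an unadjusted p under 0.05 were Col8a1 (0.58 ± 0.17), Col1a1 (0.41 ± 0.17), Col3a1 (0.39 ± 0.15), Col1a2 (0.38 ± 0.14), Col5a2 (0.34 ± 0.12) and Col6a3 (0.32 ± 0.11), each with an adjusted p of 1. For these 6 genes the RMG and HFD arrays did not overlap. In all, 12 collagens had every RMG array above every HFD array, which 6.35% of all genes had, and none had every RMG array below. The small share of negative changes was not particular to RMG. In SMG against HFD it was also 15.2% of collagens, against 48.3% of all genes.

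Between H_FMG and HFD the fibrillar class had 5 positive and 5 negative changes and a median of -0.01. H_FMG lay below HFD in Col1a1, Col1a2 and Col3a1 without passing. Col1a1 read 9.19, 8.95 and 8.63 in H_FMG against 9.55, 9.73 and 9.32 in HFD, a difference of -0.61 ± 0.17 (95% interval -0.96 to -0.26, adjusted p = 0.144). Col1a2 read 9.07, 8.85 and 8.64, a difference of -0.54 ± 0.14 (adjusted p = 0.132), and Col3a1 differed by -0.40 ± 0.15 (adjusted p = 0.226). For Col1a1, Col1a2 and Col3a1 the groups did not overlap. Arrays without overlap were found for 11 collagens, 8 lower and 3 higher, against 22.1% of all genes, and Col11a1 (0.13 ± 0.12) and Col11a2 (0.22 ± 0.12) were among the higher ones. Without H_FMG array 3, 2 collagens passed as lower.

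For Col1a1 the mean of L_FMG lay between those of HFD and H_FMG, with arrays at 9.41, 9.23 and 9.09 and a difference from HFD of -0.29 ± 0.17 (adjusted p = 0.630). Not all collagens had that order, and L_FMG was the lowest of the 7 groups for 4 of them. The trend over 0%, 0.3% and 0.9% fermented grain among HFD, L_FMG and H_FMG called no collagen (0% of all genes), and 4 of 33 had an unadjusted p under 0.05, against 13% of all genes. Its slope for Col1a1 was -0.65 ± 0.18 log2 units per 1% of grain (adjusted p = 0.203). H_FMG against L_FMG likewise called none (0% of all genes), with 0 collagens and 3.91% of all genes at an unadjusted p under 0.05. BC had Col1a1 at 9.16, 9.67 and 9.48, 0.09 ± 0.17 below HFD.

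The order of group means was the same for Col1a1, Col1a2, Col5a2 and Col6a3: ND, H_FMG, L_FMG, BC, HFD, SMG and RMG from low to high. For Col1a1 each neighbouring pair in that order overlapped, so only groups further apart were separated. Over all 33 collagens RMG was the highest group for 9, among them 6 of the 10 fibrillar chains, and ND was the highest for 15. HFD was the lowest group for 11 collagens and ND for 9.

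**Figure D3:**
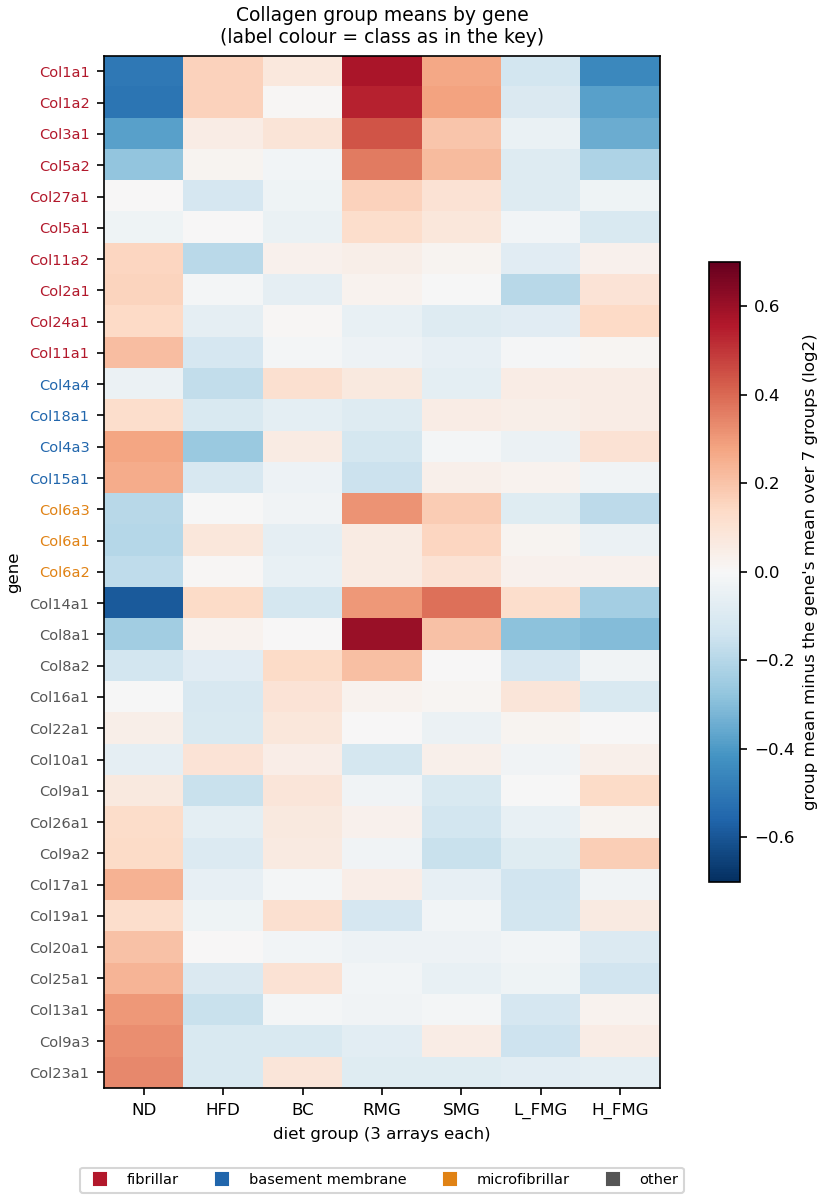
Mean of each collagen in each diet group minus the gene's mean over the 7 groups, on the log2 scale, with gene labels coloured by class. The Col1a1, Col1a2, Col3a1 and Col5a2 rows run from blue in ND and H_FMG to red in RMG and SMG. The group means of Col5a1 span only 0.22, and its ND cell is pale. ND is the highest group for 15 of the 33 rows, Col15a1 and Col23a1 among them.

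Because RMG and H_FMG lay at opposite ends of the high-fat groups, they were compared directly, a choice made after the group levels were seen, so its p-values are not those of a planned test. The share of collagens called here and its direction are likewise not independent of that choice. Of 33 collagens 6 passed (18.2%), all lower in H_FMG, against 7.19% of all genes in either direction and 4.92% lower. They were Col1a1 (-1.01 ± 0.17, 2.02-fold lower, adjusted p = 0.0045), Col1a2 (-0.92 ± 0.14, 0.00438), Col8a1 (-0.91 ± 0.17, 0.0065), Col3a1 (-0.79 ± 0.15, 0.00761), Col5a2 (-0.58 ± 0.12, 0.00958) and Col6a3 (-0.50 ± 0.11, 0.0146). All 6 were among the 7 collagens higher in RMG than in ND, and both comparisons use the RMG arrays. Col14a1, the remaining one, did not pass here (-0.53 ± 0.23). Col8a1 read 5.76, 5.80 and 5.56 in H_FMG, where no array came near the lowest RMG value of 6.56. Without H_FMG array 8, 1 collagen passed: Col1a2 stayed under the threshold (its highest adjusted p in any setting was 0.0419), and Col1a1 reached 0.0536.

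Collagen maturation needs enzymes and partners outside the family, and lists of these were examined alongside. In HFD against ND 6.54% of all genes were called higher and 2.09% lower, and a single gene out of 9 or 10 is near that share. In HFD against ND, 1 of 9 measured modifying and folding genes rose, P4ha1, a catalytic subunit of the prolyl hydroxylase that stabilises the collagen helix (0.39 ± 0.11, adjusted p = 0.0357). Of 10 secretion and cleavage genes Pcolce rose, which speeds the removal of the C-terminal propeptide (0.58 ± 0.16, 0.026). Loxl3, a lysyl oxidase that crosslinks fibres, rose among 3 crosslinking genes (0.67 ± 0.13, 0.00477), and Lox differed by 0.62 ± 0.23 (0.0973). Of 6 receptors and uptake genes Antxr2, a receptor that takes up type VI collagen, rose (0.55 ± 0.10, 0.00423). No gene of these 4 lists fell.

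In HFD, where 6.54% of all genes were called higher, 3 of 5 measured degradation genes rose: Mmp14, a membrane-bound collagenase (0.98 ± 0.16, adjusted p = 0.00309), Ctsk, a lysosomal collagen protease (2.01 ± 0.37, 0.00394), and the inhibitor Timp2 (0.54 ± 0.14, 0.0169). Ctsk is also on the list of lipid-associated macrophage markers, of which 6 of 7 rose in HFD with a median of 2.01. Of 10 fibril-associated genes 4 rose and none fell, namely Thbs2 (0.94 ± 0.10, 6.36e-05), the fibril-spacing proteoglycan Lum (1.40 ± 0.26, 0.00394), fibronectin Fn1 (0.51 ± 0.12, 0.00965) and periostin Postn (0.52 ± 0.13, 0.0136). Lum read 7.23, 7.36 and 7.68 in ND, 8.74, 8.99 and 8.74 in HFD and 9.11, 9.13 and 9.05 in RMG. The median change of the fibril-associated list was 0.34 and that of the degradation list 0.54, against -0.04 for all genes.

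In RMG against ND, where 10.2% of all genes were called higher and 4.53% lower, the counts higher were 3 of 9 for modifying and folding, 2 of 10 for secretion and cleavage, 2 of 3 for crosslinking, 1 of 6 for receptors, 3 of 5 for degradation and 4 of 10 for the fibril-associated genes. The single one that fell was Timp3, a matrix-bound protease inhibitor (-0.71 ± 0.20, adjusted p = 0.0223). In H_FMG against RMG, where 2.28% of all genes were called higher and 4.92% lower, 5 of 10 fibril-associated genes fell, 3 of 5 degradation genes fell and Timp3 rose, 1 of 3 crosslinking and 1 of 10 secretion genes fell, 1 of 6 receptor genes fell and 1 rose, and none of 9 modifying genes passed.

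Marker lists of cell types were set beside the collagens. All 9 macrophage markers rose in HFD, RMG and SMG against ND, with median changes of 1.29, 1.41 and 1.05, and all 9 fell in H_FMG against RMG (median -1.14). The shares of all genes called higher were 6.54%, 10.2% and 4.74% against ND, and 4.92% were lower in H_FMG against RMG. Lipid-associated macrophage markers rose in 6 of 7 in each of HFD, RMG and SMG, and 4 of 7 fell in H_FMG against RMG. Summed as the mean deviation from each gene's own mean over 21 arrays, the 9 macrophage markers ranged from -1.07 to -0.53 in ND, 0.36 to 0.65 in HFD, 0.64 to 0.80 in RMG, -0.27 to 0.70 in SMG and -1.01 to 0.04 in H_FMG. Of 9 fibroblast and progenitor markers, 2 rose in each of HFD, RMG and SMG against ND, and in HFD they were Mfap5 (0.83) and Pdgfra (0.63). The sum of that list ran from -0.60 to 0.05 in ND, 0.12 to 0.21 in HFD, 0.00 to 0.10 in RMG and -0.37 to 0.03 in H_FMG. Type I, III and V chains summed the same way ran from -0.43 to -0.22 in ND, -0.04 to 0.17 in HFD, 0.30 to 0.46 in RMG and -0.46 to -0.17 in H_FMG. From HFD to RMG the fibroblast sum was thus lower, while the sum of these chains was higher. No fibroblast marker passed in RMG against HFD (0% of all genes did), and the median change of that list was -0.12. Its members moved both ways. Ly6c1 read 5.22, 5.13 and 5.36 in HFD and 4.42, 3.99 and 5.30 in RMG. Mfap5 read 9.14, 9.41 and 9.12 in HFD and 9.64, 9.62 and 9.43 in RMG. SMG array 12 had the highest fibroblast sum of SMG (0.41) and its lowest sum of type I, III and V chains.

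Endothelial markers fell in 1 of 7 in HFD (Vwf, -0.71) and in 5 of 7 in RMG against ND, beside the lower Col15a1; 2.09% and 4.53% of all genes were called lower there. Their sum ran from -0.04 to 0.34 in ND, -0.36 to -0.01 in HFD and -0.46 to -0.22 in RMG. Mural markers fell in 2 of 6 in HFD (Myh11, -0.93, and Notch3, -0.40) and in 3 of 6 in RMG, and 3 of 5 adipocyte markers fell in RMG against ND. Mesothelial, epididymis duct and skeletal muscle lists had no called gene among 6, 4 and 2 measured in those comparisons. The part of these cell types in the collagen differences was not tested.

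**Figure D4:**
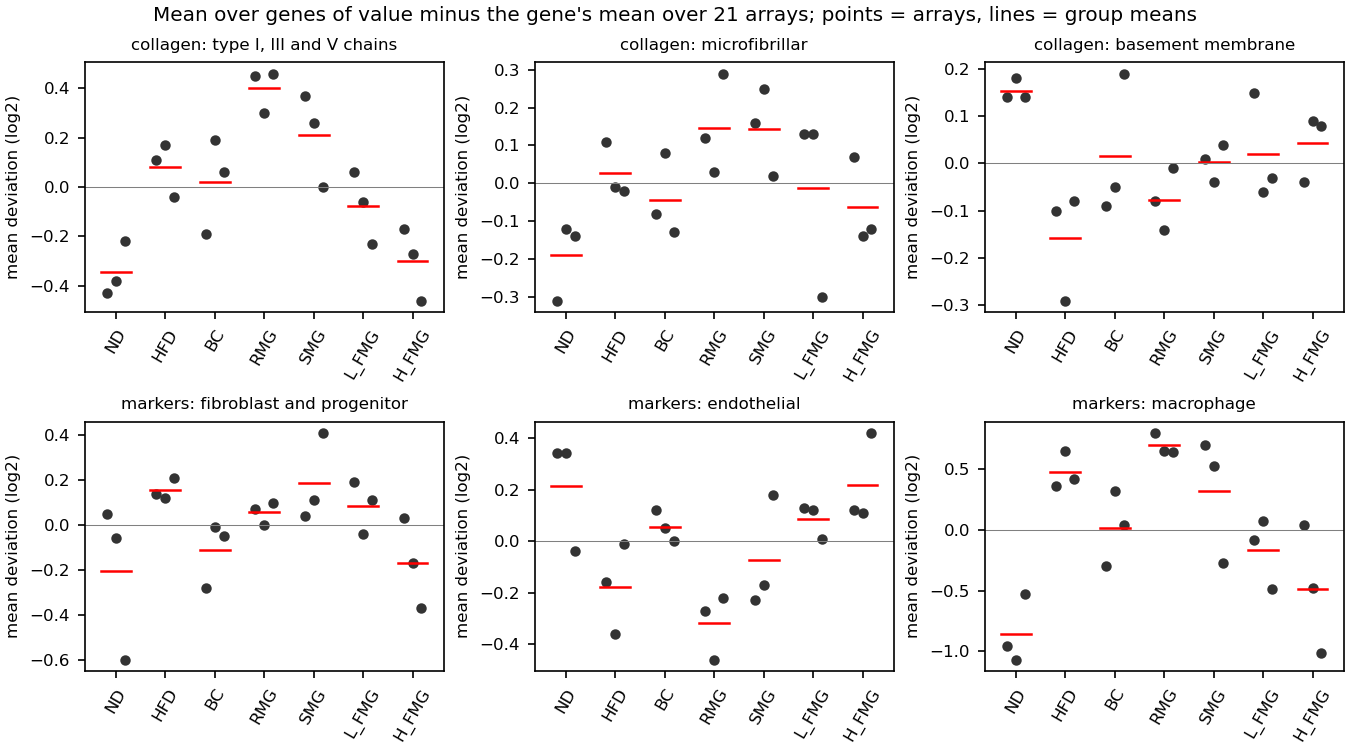
Mean over the genes of a list of each value minus that gene's mean over 21 arrays, on the log2 scale, for 3 collagen sets and 3 marker lists; points are arrays and red lines are group means. The type I, III and V set has group means of -0.34 in ND, 0.08 in HFD, 0.41 in RMG and -0.30 in H_FMG, and the macrophage list has -0.86, 0.48, 0.69 and -0.49.

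Collagen chains were set against each other across the 21 arrays, as 13 pairs with two-sided permutation tests adjusted by Benjamini-Hochberg. Most pairs were of 1 collagen type. Col1a1 was also paired with Col3a1 and Col5a1, and Col15a1 with Col18a1, which are chains of different collagens. Col1a1 and Col1a2 had Pearson r = 0.97 and Spearman rho = 0.98, and Col1a1 and Col3a1 had 0.98 and 0.97 (raw p = 1e-05, the smallest that 100000 permutations can give, adjusted p = 4.33e-05 for all 4 values). With each group's mean removed the r values were 0.87 and 0.93, and without the 2 arrays farthest from the median they were 0.96 and 0.97. Both pairs therefore moved together between arrays of 1 group as well as between groups. Each pair shares its arrays, their signal scale and their cell makeup.

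Type VI chains were also correlated within groups. Col6a1 and Col6a2 had r = 0.86 and rho = 0.85 (permutation p 1e-05, adjusted 4.33e-05; 0.84 within groups), although neither passed in any comparison, and 0.85 remained without the 2 farthest arrays. Col6a1 and Col6a3 had r = 0.67 and rho = 0.69 (adjusted permutation p = 0.00286 and 0.00279; 0.69 within groups, 0.65 without the 2 farthest arrays), and Col6a2 and Col6a3 had r = 0.60 and rho = 0.55 (0.00778 and 0.0178; 0.69 within groups). For the last pair r was 0.40 without ND array 6 and L_FMG array 10, so it rests partly on those arrays.

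Type V chains Col5a1 and Col5a2 had r = 0.61 and rho = 0.66 (adjusted permutation p = 0.00778 and 0.00348), and Col1a1 and Col5a1 had r = 0.61 and rho = 0.64 (0.00778 and 0.00555). With group means removed, r was 0.22 and 0.30, and without the 2 farthest arrays it was 0.47 and 0.49. Col15a1 and Col18a1 had r = 0.50 and rho = 0.53 (0.0503 and 0.0205) and 0.09 within groups (0.62 without the 2 farthest arrays), and Col11a1 and Col11a2 had r = 0.36 and rho = 0.55 (0.176 and 0.0178) and -0.02 within groups (0.40 without them). Col4a3 and Col4a4, which share a basement membrane protein, had r = 0.10 and rho = 0.23 (0.653 and 0.346), and r was 0.42 without ND array 9 and BC array 11, so the low value rests on those arrays. The pairs Col8a1 and Col8a2, Col9a1 and Col9a2, and Col9a2 and Col9a3 had r between 0.26 and 0.30, rho between 0.18 and 0.33, and no adjusted p under 0.19, with r between 0.10 and 0.21 without the 2 farthest arrays. Dim genes were part of these pairs. Group means ran from 3.34 to 3.67 for Col11a1, 4.02 to 4.56 for Col4a3 and 3.98 to 4.26 for Col4a4. They were 4.05 to 4.39 for Col8a2, 4.02 to 4.31 for Col9a1 and 4.22 to 4.69 for Col9a3. Array medians were 4.23 to 4.39. The part of signal level in the low r values was not tested.

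**Figure D5:**
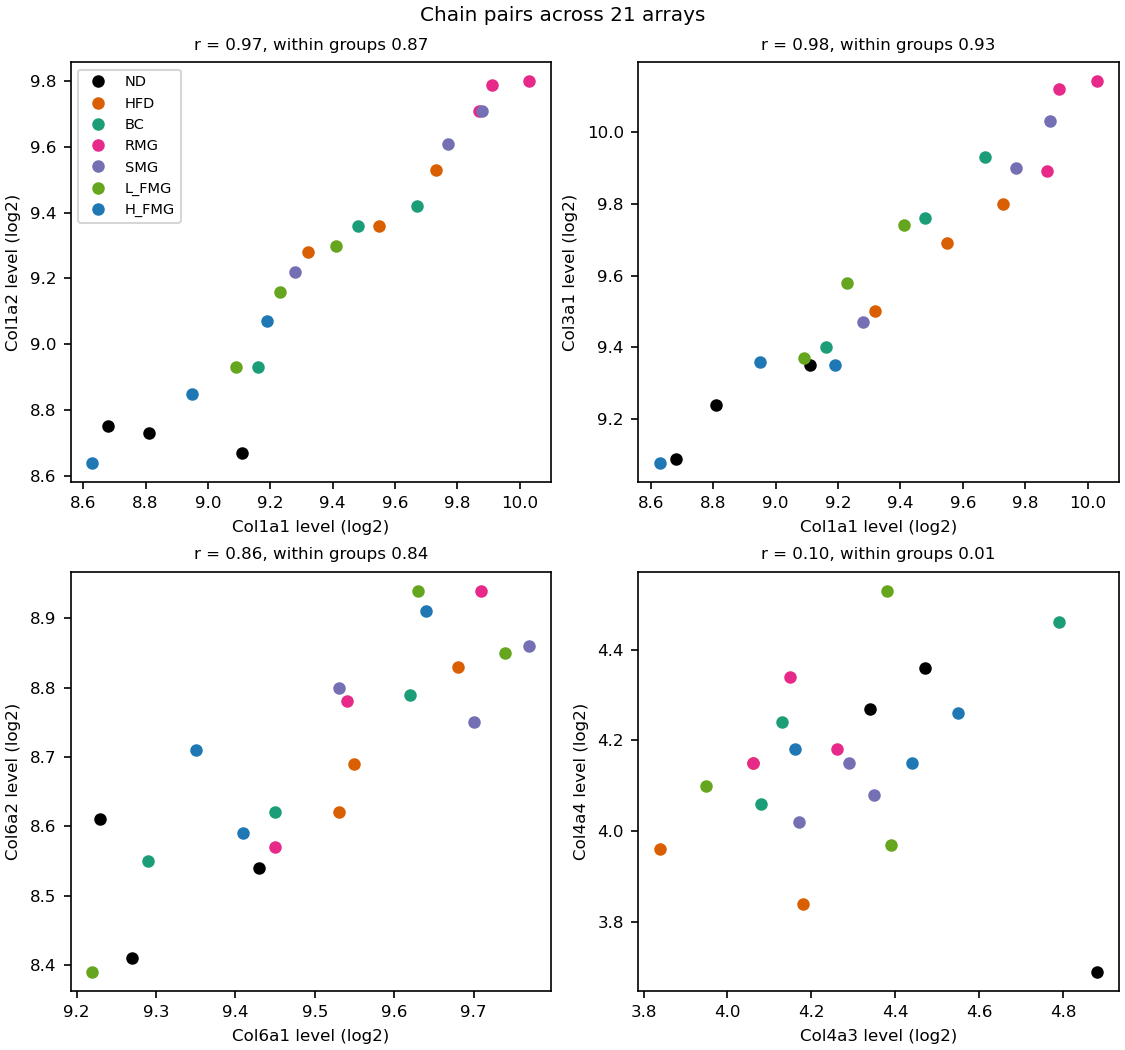
Log2 levels of 4 chain pairs on the 21 arrays, coloured by diet group, with Pearson r over all arrays and after removing group means above each panel. Col1a1 and Col1a2 follow a narrow line (0.97), Col6a1 and Col6a2 a broader one (0.86), and Col4a3 and Col4a4 are scattered (0.10, or 0.42 without ND array 9 and BC array 11). Col4a3 and Col4a4 are also dim, with group means from 3.98 to 4.56.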

How the data were processed

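The deposited values are log2 levels, 1 per probe and array. Per the labels' protocols, Trizol was used for RNA extraction and fragmented sense cDNA carried a biotin label from a GeneChip whole-transcript kit. The sources used here do not say how the authors summarised and normalized the signal or which log base they used; base 2 was taken from the range of the values (0.84 to 12.71). Of 24292 probes, 24291 were complete. Its incomplete last row was left out, and the 11 collagens not analysed here lie on chromosomes 6, 8, 9 and X. The platform annotation gave 17067 probes 1 symbol, 1139 several and 6085 none; probes with several or none were left out, and the brightest probe stood for a gene. Names, promoter windows and chromosomes came from RefSeq tables of GRCm38.p6, and 116 single-symbol probes kept a symbol without a match. Collagen classes, pathway lists and markers were chosen with earlier results of these data known, so they are no independent evidence.

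Linear models were fitted by limma 3.58.1 (R 4.3.3), with 1 coefficient per group over 21 arrays, with moderated variances and an intensity trend, and p-values were adjusted by Benjamini-Hochberg over 16248 genes in each comparison (threshold 0.05). The fit was tested on simulated data. No array pair of 210 was identical. Array numbers occur in several groups; the correlation of deviations from group means for 18 same-number pairs ran from -0.30 to 0.18, so the numbers were not taken to pair mice. Collagens that passed in any comparison were given in full, and pathway genes were named if they passed in HFD against ND, or else the one with the smallest p; Timp3, Lox and the cell markers named were singled out after their values were seen. Alternatives were quantile normalization, a filter at the median level, other probe rules, the compared groups alone, a number block, array weights and leaving out each array. Scan dates and batches were not among the labels, so no batch was checked.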

Additional observations from a re-analysis of the deposited data

How the results depend on the processing

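Over 14 comparisons, 185 counts of called collagens were recomputed: 166 stayed within 1.5 times the count reported, 10 were lower and 9 higher. Only HFD, RMG and SMG against ND and H_FMG against RMG had calls to lose. In the other comparisons the reported count was 0, which could not fall, and 0 again counted as unchanged. All 10 lower counts thus came from the comparisons with calls, and the 166 say little about how stable the calls were. The 24 single calls were recomputed in 312 settings; 248 kept the call, 64 lost it and none changed direction. With array weights the count was 9 in HFD against ND, 12 in SMG against ND, 3 in BC against ND, 1 in L_FMG against ND, and 2 each in H_FMG against HFD and in the fermented grain trend. With the compared groups alone it was 2 in HFD against ND and 0 in SMG against ND. With the replicate block on array numbers, which do not pair the mice, it was 1 in each of those 2 comparisons, 5 in H_FMG against RMG, and no array of 17 correlated best with its own number. Leaving out 1 array gave 0 to 5 in HFD against ND (0 without HFD array 6, 2 without ND array 8), 0 to 8 in SMG against ND, 0 to 2 in H_FMG against HFD, 0 to 1 in BC against ND and 1 to 6 in H_FMG against RMG. The count of 9 in RMG against ND stayed within 1.5 times in every setting run. Single calls were still lost there, Col23a1 in 6 of 13 settings and Col14a1 and Col15a1 in 2 of 13 each. Quantile normalization moved the median of all genes by at most 0.04 and removed the SMG calls of Col3a1 (adjusted p = 0.0571) and Col5a2 (0.0633), while Col15a1 gained one as lower (-0.34, 0.0434), for 4 calls against 5. With 3 arrays a group and no detection calls, small changes of dim collagens cannot be resolved, and the cause of each lost call was not tested.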
